A study of Mus musculus with 2 samples.

Results

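Alpha and beta tubulin form the dimers that microtubules are built from, and the mouse genome encodes each as a family of closely related isotypes. The 10 isotype genes described here are the alpha tubulins Tuba1a, Tuba1b, Tuba1c and Tuba4a and the beta tubulins Tubb2a, Tubb2b, Tubb3, Tubb4a, Tubb4b and Tubb5, out of 45578 genes in the table. They were chosen by name, and the isoform with most counts over both libraries stood for each gene. All 10 were in the table, and all 10 had a mean above the minimum of 10 counts.

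The material was brain of control mice at postnatal day 5, of genotype Smn+/-; SMN2tg/0: they had 1 functional mouse Smn allele and a hemizygous human SMN2 transgene on an FVB background. Both libraries share this genotype, so it was not compared with any other. RiboLace captures translating ribosomes on beads that carry a puromycin analogue. The fragments of 25 to 35 nucleotides protected by those ribosomes were sequenced in 2 libraries labelled as biological replicates of 1 group. The labels do not say whether the libraries came from separate animals, and the series text speaks of a single mouse, so the spread between them may be technical.

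Microtubules fill the axons and dendrites of neurons, and growing neurons make tubulin in large amounts. Isotypes differ mainly in the acidic tail at the carboxyl end of the protein, which motor proteins, microtubule-associated proteins and modifying enzymes bind. New alpha and beta chains are folded by the chaperonin CCT with the help of prefoldin, and are joined into dimers by the tubulin cofactors. Free dimers also feed back on tubulin synthesis: TTC5 recognises nascent tubulin at the ribosome and triggers decay of the mRNA being translated.

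Replicate 1 held 343547 gene counts and replicate 2 held 120287, so values of replicate 2 carry the larger counting error. Of the markers that check the tissue, all 6 neuronal and all 5 astrocyte and radial glia genes were past the count filter, with median coding densities of 431 and 355 CPM per coding kilobase in replicate 1 and 439 and 335 in replicate 2. This coding density is the count scaled to the size of the library (CPM, with TMM scaling) and divided by the length of the coding sequence. Counts are given per transcript and non-coding transcripts hold counts too, so fragments in untranslated regions may be included. All 5 oligodendrocyte lineage markers were past it too. Of the 5 erythroid markers, the 4 globin genes were also abundant, while Alas2 had 6 and 1 counts, below the filter. Only 1 of 5 microglia markers, Csf1r, and 1 of 4 endothelium markers, Cldn5, were past the filter. Of the 3 choroid plexus markers, Ttr had 395 and 153 counts, while Kcnj13 had 3 and 0 and Folr1 had 4 and 2, below the filter. Of the 3 skeletal muscle markers, Acta1 had 70 and 22 counts and was past the filter, Myh3 had 2 and 2, and Ckm had 0 in both libraries. Counts of a bulk tissue cannot tell more cells of a type from more RNA per cell, and footprints without matched total RNA cannot tell more mRNA from more ribosomes per mRNA.

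Paralogs and isoforms share sequence, and the table does not say how a fragment that matched several transcripts was counted. Isoform pairs were compared by several criteria in turn, all chosen after the table was seen. By the first, equal coding length and at least 50 counts in replicate 1, 13 of 201 pairs (6.47%) had equal counts, against 3.02% for a random split of shared fragments. The last and strictest is the one given next. In 28 pairs of coding isoforms, from 24 genes, with equal untranslated lengths and coding lengths within 9 nucleotides, the squared difference of the counts over their sum averaged 0.248 in replicate 1 and 0.555 in replicate 2, where a random split of shared fragments would give 1. The isoforms of Psd, an example picked after its values were seen, had 77 and 77 counts in replicate 1 and 20 and 20 in replicate 2, while those of Apoe, picked in the same way, had 288 and 261, and 61 and 83. Counts of such pairs were closer than a random split gives, but mostly not equal by the first criterion, so it is not settled whether each shared fragment was counted for each transcript. Counts of tubulin paralogs overlap to an unknown extent, and every level of a single isotype given here can include fragments of others.

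The 10 tubulins together held 11254 gene counts in replicate 1 and 4317 in replicate 2. Their share was 3.43% ± 0.221 of gene counts (SD, n = 2). Replicate 1 gave 3.28%, with a 95% Wilson interval of 3.22 to 3.34, and replicate 2 gave 3.59%, with one of 3.49 to 3.70, so that the intervals did not overlap. With all isoforms of every gene summed, the mean share was 2.22%. The alpha genes held 1.48% and 1.57%, and the beta genes 1.80% and 2.02%. These sums can count a shared fragment repeatedly. In replicate 1, the distinct fragments counted for the representative alpha transcripts numbered between 1938, the count of Tuba1a alone, and 5079, the sum over the 4 genes. Those counted for the representative beta transcripts numbered between 1812, the count of Tubb2b alone, and 6175. Fragments counted only for other isoforms are outside these limits. In replicate 2 the limits were 725 and 1884 for alpha and 741 and 2433 for beta.

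Levels between genes were compared per coding nucleotide, although the coding sequences were of nearly equal length, from 1335 nucleotides in Tubb4a and Tubb5 to 1433 in the Tuba4a transcript. The isotypes fell into a group of 7 and a group of 3. Tuba1a, Tubb2b, Tubb2a, Tuba1c, Tuba1b, Tubb5 and Tubb3 all lay between 2125 and 4946 CPM per coding kilobase in both libraries. Tubb4a, Tubb4b and Tuba4a lay between 127 and 702. This split held for mean densities with isoforms summed (1207 to 4217 against 241 to 328) and per transcript length (1328 to 3560 against 108 to 391). The order within the group of 7 changed under both settings, and that within the group of 3 with isoforms summed. The main changes are described for each gene. The 3 sparser genes held 5.00% of the summed tubulin density in replicate 1 and 4.46% in replicate 2.

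**Figure D1:**
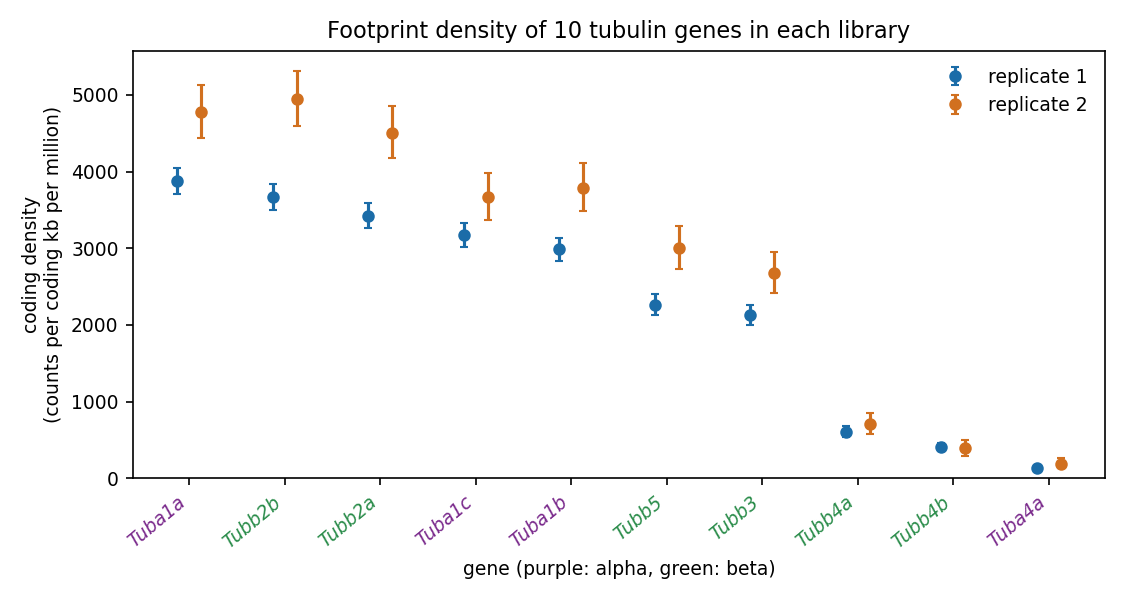
Coding density of each tubulin gene (vertical axis, CPM per coding kilobase) in replicate 1 and replicate 2, ordered by the mean. Points are single libraries and bars are 95% exact Poisson intervals, which cover counting error only. The group of 7 lies between 2125 and 4946, and the other 3 lie between 127 and 702.

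Tuba1a, Tuba1b and Tuba1c lie close together on chromosome 15 and were the abundant alpha genes. Tuba1a (ENSMUSG00000072235, chromosome 15, 98949847 to 98953501), the main alpha tubulin of newly formed neurons, had 1938 counts in replicate 1 and 725 in replicate 2 on a coding sequence of 1356 nucleotides. This is 1.43 and 0.535 counts per coding nucleotide. Its scaled coding density was 3873 CPM per coding kilobase in replicate 1 (95% Poisson interval 3702 to 4049) and 4775 in replicate 2 (4433 to 5135), for a mean of 4324 ± 638 (SD, n = 2). It ranked 1 in replicate 1 and 3 in replicate 2 among the 4294 protein-coding genes past the count minimum that have a coding length.

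Tuba1c (ENSMUSG00000043091, chromosome 15, 99029891 to 99038105), a widely expressed isotype, had 1581 and 554 counts, or densities of 3173 and 3665 CPM per coding kilobase. Tuba1b (ENSMUSG00000023004, chromosome 15, 98931429 to 98934390), also widely expressed, had 1493 and 575 counts, or densities of 2984 and 3787. The order of Tuba1c and Tuba1b turned around between the libraries, with a ratio of 1.06 in replicate 1 and 0.968 in replicate 2, so they were not distinguishable. By mean density Tuba1c was the higher, at 3419 against 3385. Tuba1b was the higher with isoforms summed, at 2004 against 1719, and per transcript length, at 2634 against 2335. The density of Tuba1a was 1.28 ± 0.026 times that of Tuba1b and 1.26 ± 0.058 times that of Tuba1c (SD, n = 2), higher in both libraries each time.

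How much of the density listed for Tuba1b and Tuba1c came from Tuba1a fragments, or the reverse, was not tested.

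Tuba4a (ENSMUSG00000026202, chromosome 1, 75214972 to 75221261), the alpha isotype whose gene does not encode the terminal tyrosine, was the lowest of all 10 by its representative isoform. It had 67 and 30 counts, or densities of 127 (98.2 to 161) and 187 (126 to 267) CPM per coding kilobase. Tuba1a stood 30.6 times higher in replicate 1 and 25.5 times higher in replicate 2. Its representative transcript, Tuba4a-002, has an annotated coding sequence of 1433 nucleotides, which is not a whole number of codons, and no 5′ untranslated region. With the transcript Tuba4a-001, of 1347 coding nucleotides and 66 and 21 counts, the mean density was 136 in place of 157. With isoforms summed it was 306, above the 241 of Tubb4b, which was then the lowest. That sum can count a fragment again for each isoform of Tuba4a, and it is divided by the coding length of Tuba4a-002 alone.

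By representative isoforms, Tubb2b and Tubb2a were the densest beta tubulins. With isoforms summed, Tubb5 was the densest, at a mean of 2362, against 2170 for Tubb2b and 1996 for Tubb2a. The Tubb5 sum adds the counts of Tubb5-002, Tubb5-003 and Tubb5-004, which can repeat fragments of Tubb5-001. It is divided by the coding length of Tubb5-001 alone, so the sum can overstate Tubb5 against genes with a single isoform. Each of these Tubb2 genes has a single isoform in the table, so its counts stayed the same. Their means fell from 4308 and 3964 as the scaled library size rose, from 369035 to 752106 in replicate 1. Tubb2b (ENSMUSG00000045136, chromosome 13, 34127008 to 34130354), a beta isotype of developing brain, had 1812 and 741 counts on 1338 coding nucleotides. Its density was 3670 CPM per coding kilobase in replicate 1 (3503 to 3843) and 4946 in replicate 2 (4596 to 5315), and it ranked 2 among protein-coding genes in both. Tubb2a (ENSMUSG00000058672, chromosome 13, 34074278 to 34078008) is its neighbour, 49.0 kb away. It had 1690 and 675 counts, or densities of 3423 and 4505. Tubb2b was 1.07 times Tubb2a in replicate 1 and 1.10 times in replicate 2. That order held in both libraries, but the ranges of the genes over the libraries overlapped. Per transcript length the order turned, with means of 2999 for Tubb2b and 3348 for Tubb2a.

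Tubb5 (ENSMUSG00000001525, chromosome 17, 35833920 to 35838301), the beta isotype found in most cell types and in dividing progenitors, had 1116 and 449 counts. Its densities were 2265 and 3004 CPM per coding kilobase. Tubb3 (ENSMUSG00000062380, chromosome 8, 123411553 to 123422015), the beta isotype used as a marker of neurons, had 1061 and 405 counts, or densities of 2125 and 2673. Tubb5 was 1.07 and 1.12 times Tubb3, again the same order with overlapping ranges. Per transcript length the order turned, with means of 1328 for Tubb5 and 1738 for Tubb3. With isoforms summed, Tubb3, which also has a single isoform and so the same counts, had a mean of 1207 on the larger library size. Tubb2b was 1.79 ± 0.087 times Tubb3 and 1.63 ± 0.019 times Tubb5 (SD, n = 2). Tubb3 and Tubb5 both lay below both Tubb2 genes in each library by representative isoforms, an order that turned for Tubb5 with isoforms summed.

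Tubb4a and Tubb4b were the low beta genes. Tubb4a (ENSMUSG00000062591, chromosome 17, 57080061 to 57087600), a brain isotype abundant in the adult and in oligodendrocytes, had 297 and 105 counts, or densities of 603 (536 to 675) and 702 (574 to 850) CPM per coding kilobase. Tubb3 exceeded it 3.52-fold and 3.81-fold. Tubb4b (ENSMUSG00000036752, chromosome 2, 25222158 to 25224702), a broadly expressed isotype also found in cilia, had 199 and 58 counts, or densities of 403 (349 to 463) and 387 (294 to 500). Tubb4a was 1.66 ± 0.225 times Tubb4b (SD, n = 2), and the ranges of these genes over the libraries did not overlap. With isoforms summed, the means on the larger library size were 328 for Tubb4a, whose counts were unchanged, and 241 for Tubb4b.

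In the order of mean density, from Tuba1a through Tubb2b, Tubb2a, Tuba1c, Tuba1b, Tubb5, Tubb3, Tubb4a and Tubb4b to Tuba4a, each of the first 6 neighbouring pairs overlapped over the libraries. Tuba1a and Tubb2b changed places between the libraries, as did Tuba1c and Tuba1b. The other overlapping pairs kept their order in both. Such overlap sets values of one library against those of the other, and 9 of the 10 tubulins were higher in replicate 2. Within the libraries, Tuba1b was 1.32 and 1.26 times Tubb5, and their Poisson intervals did not overlap in either. That order turned with isoforms summed, at means of 2004 for Tuba1b and 2362 for Tubb5. The last 3 pairs did not overlap: Tubb3 lay above Tubb4a, Tubb4a above Tubb4b, and Tubb4b above Tuba4a in both libraries. Of these 3 orders, that of Tubb4b and Tuba4a turned with isoforms summed.

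The make-up of each family does not depend on how the libraries are scaled, and it was nearly the same in both. Tuba1a made up 38.1% of the summed alpha density in replicate 1 and 38.5% in replicate 2, or 38.3% ± 0.236 (SD, n = 2). By counts its share was 38.2% (95% Wilson interval 36.8 to 39.5) and 38.5% (36.3 to 40.7). Tuba1c made up 30.4% ± 1.22, Tuba1b 29.9% ± 0.80 and Tuba4a 1.38% ± 0.183 of alpha density (each SD, n = 2). In the beta family, Tubb2b made up 29.9% ± 0.786, Tubb2a 27.6% ± 0.264, Tubb5 18.3% ± 0.270, Tubb3 16.7% ± 0.376, Tubb4a 4.58% ± 0.351 and Tubb4b 2.81% ± 0.594 (each SD, n = 2). With isoforms summed, the shares were 51.2% for Tuba1a, 28.4% for Tubb5, 26.0% for Tubb2b and 24.0% for Tubb2a. The Wilson intervals of the count shares overlapped between the libraries for each of the 10 genes. Summed over the family, alpha density was 0.813 times beta density in replicate 1 and 0.765 times in replicate 2, or 0.789 ± 0.034 (SD, n = 2). This is a ratio of sums in which shared fragments can be counted repeatedly, and it rose to 0.999 when the isoforms of each gene were summed.

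**Figure D2:**
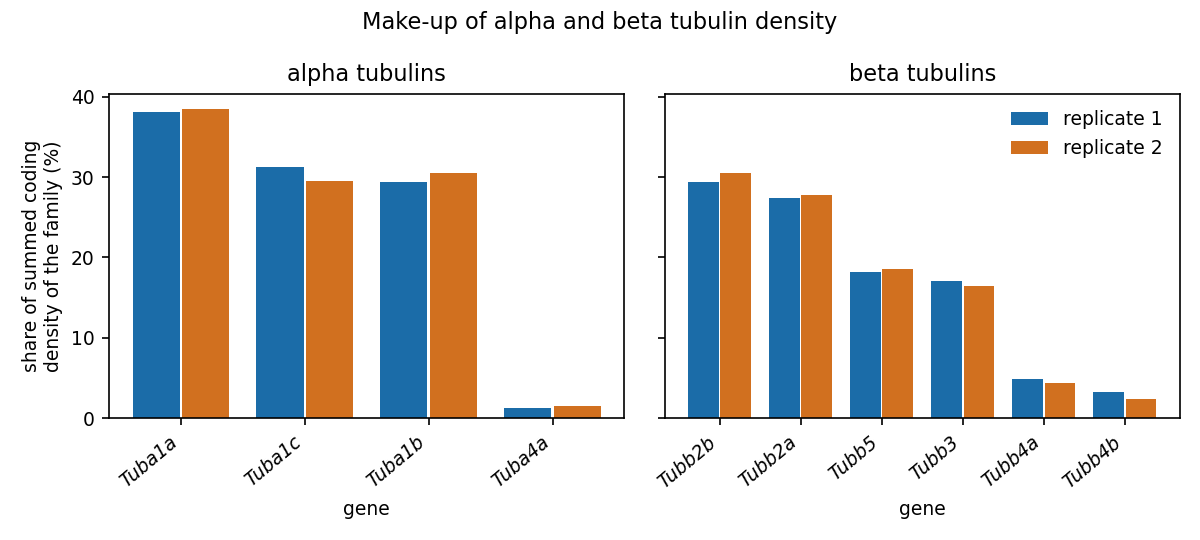
Share of each gene in the summed coding density of the 4 alpha tubulins and of the 6 beta tubulins (vertical axis, percent), with a bar for each library. Tuba1a holds 38.1% and 38.5% of alpha density, and Tubb2b and Tubb2a each hold more than Tubb5 or Tubb3 in both libraries when each gene is given by its representative isoform.

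Set against the other protein-coding genes, 7 of the 10 isotypes were among the 20 densest by coding length in each library. The median protein-coding gene had a density of 63.0 CPM per coding kilobase in replicate 1 and 60.7 in replicate 2. Tuba1a lay 61.5-fold and 78.6-fold above that median, Tubb3 33.7-fold and 44.0-fold, and Tubb4a 9.57-fold and 11.6-fold. Tuba4a lay 2.01-fold and 3.08-fold above it and ranked 1215 and 808. Gm20594, annotated with 114 coding nucleotides, ranked between the tubulins only through replicate 2, at 428 and 7755.

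**Figure D3:**
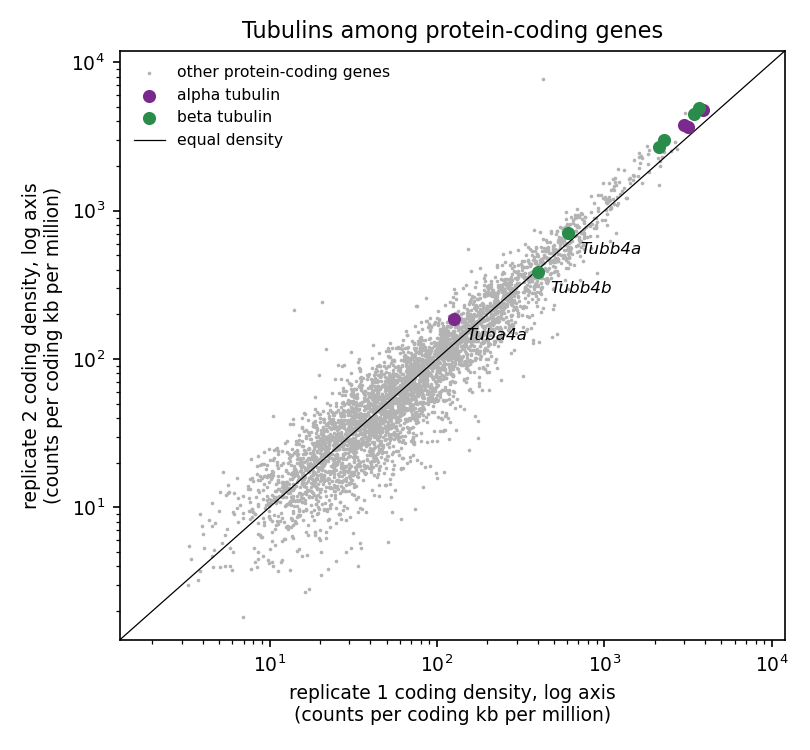
Coding density of protein-coding genes past the count minimum in replicate 1 (horizontal) and replicate 2 (vertical), both in CPM per coding kilobase on log axes. Genes with no count in a library are left off, the line marks equal density, and 7 tubulins sit at the upper end while Tubb4a, Tubb4b and Tuba4a lie lower.

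Genes outside the tubulin superfamily with the most similar pair of densities were found by Euclidean distance on the log2 scale over the 2 libraries. Nearest to Tuba1a were Tmsb10 (densities 3432 and 4630, distance 0.18) and Tmsb4x (3031 and 4564, distance 0.36), the small thymosins that bind actin monomers. Both have only 135 coding nucleotides and at most 171 and 70 counts in replicates 1 and 2, so their densities rest on far fewer fragments. Next came Actb, encoding beta-actin, at a distance of 0.91, Ttr at 0.93 and Gm8797 at 1.02. Nearest to Tubb3 was Stmn2, a tubulin-binding stathmin of growing neurons, with densities of 2198 and 2679 and a distance of 0.049. It was followed by the alpha-globin genes Hba-a1 and Hba-a2 at 0.090 and 0.14, the calmodulin gene Calm3 at 0.16 and Stmn1 at 0.21. With 2 libraries this likeness describes levels only.

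The libraries were then compared gene by gene. The log2 ratio of replicate 2 over replicate 1 was above 0 for 9 of the 10 tubulins, with a median of 0.34, while 50.1% of the 5436 genes tested were above 0, with a median of 0.0042. The exact binomial test called 6 of the 10, all higher in replicate 2, at a Benjamini-Hochberg adjusted p under 0.05. It called 4.14% of all genes tested, 3.99% in that direction, and 0.956% of protein-coding genes. Among the 664 protein-coding genes with at least the summed count of Tuba4a it called 3.61%. That count is 97, while the called tubulins had 1466 to 2663, and the test detects smaller differences at higher counts. No share was computed for genes with as many counts as the called tubulins. Whether the 6 calls are independent was not tested, since counts of paralogs may overlap.

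The called genes were Tubb2b, Tubb2a, Tubb5, Tuba1b, Tuba1a and Tubb3. The largest difference among them was that of Tubb2b, with a log2 ratio of 0.43 (counting SE 0.063, adjusted exact binomial p = 1.58e-09). The smallest was that of Tuba1a, at 0.30 (SE 0.063, adjusted p = 9.75e-05 by the same exact test). Tuba1c, with 1581 and 554 counts, had a log2 ratio of 0.21 (SE 0.071) and missed the threshold at an adjusted exact binomial p of 0.091. With isoforms summed over all genes, the counts of Tuba1c were the same but the scaling differed. Its log2 ratio was then 0.27, and it was called (adjusted exact binomial p = 0.00476). Tubb4a had a log2 ratio of 0.22 (SE 0.164), Tuba4a one of 0.56 (SE 0.317) and Tubb4b one of -0.06 (SE 0.215), and none of these 3 passed the threshold. Whether the ratio of Tubb4b differs from those of the other isotypes was not tested.

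The number of calls depended on the scaling, and the binomial test allows for counting error alone. With DESeq2 size factors in place of TMM all 6 stayed called, while 224 of all 5436 genes (4.12%) were called. With library totals in place of TMM, which lowers the median log2 ratio of all genes from 0.0042 to -0.20, only Tubb2b was called, with a log2 ratio of 0.22, while 199 of all 5436 genes (3.66%) were called. With edgeR's exact test and a preset biological coefficient of variation of 0.2, 0 of the 10 were called, against 131 of all 5436 genes (2.41%). By that test 0 of the 10 had an unadjusted p under 0.05. The unadjusted share over all genes is not given here.

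**Figure D4:**
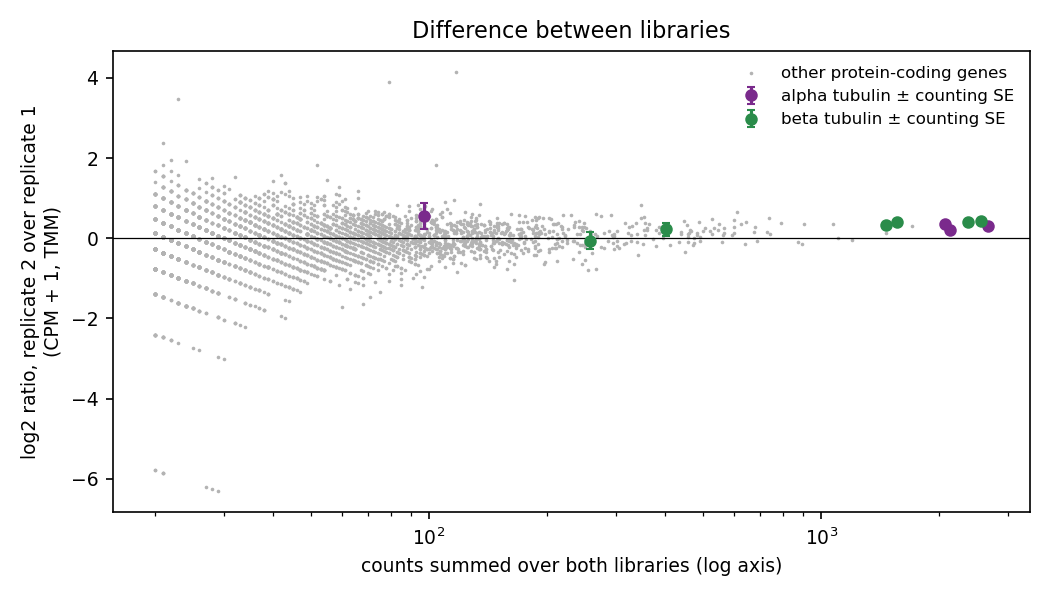
Log2 ratio of replicate 2 over replicate 1 (vertical axis, on CPM + 1 after TMM) against counts summed over both libraries (horizontal, log axis) for protein-coding genes. Tubulins carry bars of 1 counting SE; the 7 with the most counts lie between 0.21 and 0.43, and Tubb4b is the tubulin below 0.

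Isoforms in the table show where counted fragments could lie. The 10 genes have 24 isoforms in the table, and 5 genes have more than 1. For Tuba1a, the non-coding transcripts Tuba1a-002 and Tuba1a-003, of 610 and 916 nucleotides, held 39.5% and 59.8% of the count of the coding transcript in replicate 1 and 34.8% and 54.9% in replicate 2. Per 100 nucleotides of transcript they held 125 and 126 counts in replicate 1, against 118 for Tuba1a-001, and 41.3 and 43.4 in replicate 2, against 44.0. For Tubb5, the retained-intron transcript Tubb5-004, of 979 nucleotides, held 42.6% and 44.1% of the count of Tubb5-001. The retained-intron transcript of Tuba1b held 19.3% and 16.3%. A table without positions does not show whether any of these fragments lay in an intron.

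Both processed pseudogenes of Tubb4b held counts. Tubb4b-ps1 had 141 and 41 counts, which is 70.9% of the Tubb4b count in replicate 1 and 70.7% in replicate 2. Tubb4b-ps2 had 79 and 23 counts, or 39.7% and 39.7%. Their log2 ratios of replicate 2 over replicate 1, -0.061 and -0.059, and the -0.058 of Tubb4b all had an adjusted exact binomial p of 1. Which of these loci the fragments came from was not tested, and the counts of Tubb4b are uncertain for this reason.

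The other 10 genes of the tubulin superfamily were low in comparison. Tubb6, a beta isotype of non-neuronal cells, was the highest, with 109 and 40 counts and densities of 220 and 266 CPM per coding kilobase. That is above Tuba4a in both libraries and below Tubb4b, by representative isoforms. Tubg1 and Tubg2, the gamma tubulins that nucleate microtubules, had 19 and 4 counts and 7 and 3 counts. The alpha genes Tuba3a, Tuba3b and Tuba8, known from testis or of restricted expression, had 9, 7 and 9 counts in replicate 1 and 1, 2 and 1 in replicate 2. Tubb1, of platelets, had 2 and 1 counts and Tubal3 had 0 and 1. Delta tubulin, Tubd1, had 2 and 0 counts. Epsilon tubulin, Tube1, had 0 in both, which allows a share of up to 0.00087% in replicate 1 and 0.0025% in replicate 2. Of the 10 genes 2, Tubb6 and Tubg1, passed the count filter, and neither was called.

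By representative isoforms, the folding genes with a coding length lay below 9 of the 10 tubulins in mean footprint density, and Tuba4a lay within their range. All 14 folding genes were in the table and 13 passed the count filter; of the 29 genes tested in the pathway lists and among the other tubulins, the exact binomial test and edgeR's exact test with the preset coefficient of variation each called 0, while the binomial test called 4.14% of all genes. At an unadjusted binomial p under 0.05 there was 1 of the 29, Tbcd, against 522 of all 5436 genes tested. The 11 folding genes whose representative transcript has a coding sequence had a median density of 159 CPM per coding kilobase, from 85.9 to 266. The highest was Cct7, a subunit of the chaperonin ring, with 150 and 52 counts and densities of 249 and 284. Pfdn1 and Pfdn2, subunits of prefoldin, followed with mean densities of 241 ± 70.3 and 238 ± 97.8 (SD, n = 2).

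Of the 6 cofactors of dimer assembly, 4 passed the count filter. Tbca, which holds beta tubulin after folding, had 36 and 11 counts and densities of 298 and 300 CPM per coding kilobase. Tbcb, which binds alpha tubulin, had 54 and 11 counts and densities of 199 and 134. Arl2, the small GTPase that works with the cofactors, had 15 and 6 counts and densities of 73.2 and 96.5. Tbcd, another cofactor, had 27 and 2 counts. Its log2 ratio of -1.98 did not pass the threshold (adjusted exact binomial p = 0.48).

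Enzymes that modify tubulin were lower still, with 8 of 16 past the filter and a median density of 33.2 CPM per coding kilobase over 15 genes. Svbp, the partner of the vasohibins that remove the terminal tyrosine of alpha tubulin, is listed under its older symbol Ccdc23 and had the highest mean density, 89.6 ± 63.9 (SD, n = 2), from 10 and 1 counts. Atat1, which acetylates alpha tubulin, had 29 and 5 counts and a mean density of 58.0 ± 22.6. Sirt2, a deacetylase of tubulin, had 30 and 6 counts and one of 57.6 ± 16.7 (each SD, n = 2). Ttc5, which senses nascent tubulin, had 13 and 7 counts and densities of 26.6 and 47.2.

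In the gamma-tubulin ring complex, the nucleator of microtubules, 1 of 8 genes passed the filter, and the median density over 7 genes was 10.6 CPM per coding kilobase. The densest were its small subunits Mzt1, with 9 and 3 counts, and Mzt2, with 14 and 3 counts, followed by Tubgcp2, with 23 and 7 counts and densities of 22.9 and 23.0.

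**Figure D5:**
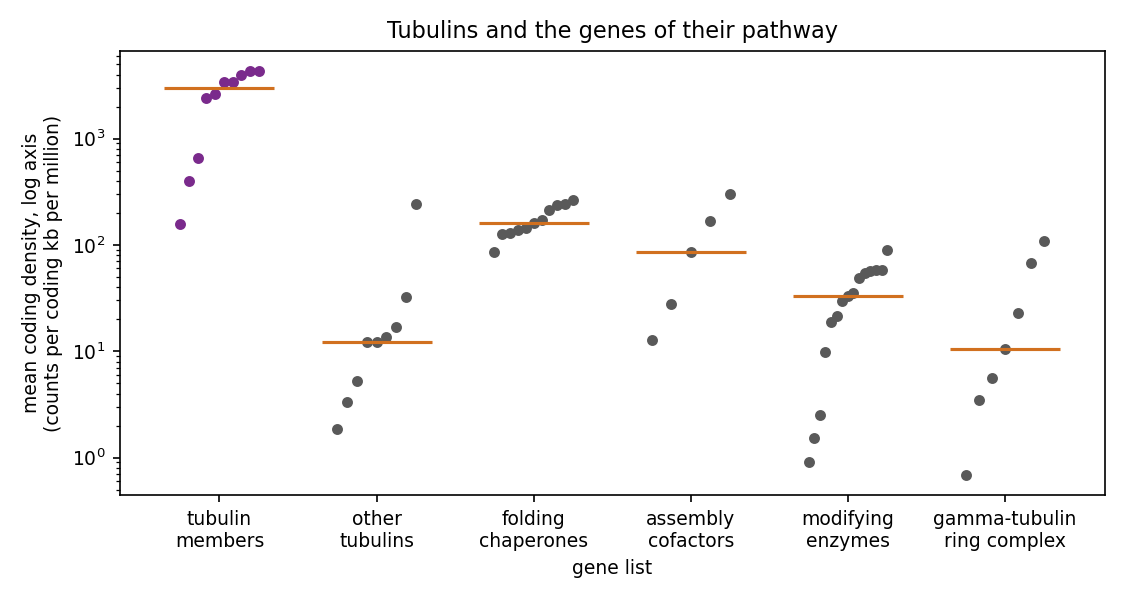
Mean coding density over both libraries (vertical axis, CPM per coding kilobase, log axis) of the 10 tubulin genes and of genes in lists of their pathway. Each point is a gene with a coding length and at least 1 count, and lines mark list medians, a Tube1 value of 0 included; the median is 3010 for the tubulins and 159 for the folding genes.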

How the data were processed

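The members and the gene lists were chosen with earlier results of these data known. Whole-number footprint counts per transcript were deposited by the authors for both libraries, not normalised; Trimmomatic 0.36, Bowtie2 2.2.6, SAMtools and the build GRCm38.p4 are named in the submitters' processing notes without a role. The counting tool and annotation release are not given in the sources used here. Lengths of transcript regions are the table's own, per the file headers.

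The isoform with most counts over both libraries stood for a gene, with ties going to the longer one. Coding density is the CPM per kilobase of coding sequence, scaled with TMM (edgeR 4.0.16) on genes whose mean count reached 10. By this scaling a single count equalled 2.71 CPM in replicate 1, and 8.93 CPM in the shallower replicate 2. Log2 ratios divide replicate 2 by replicate 1 after adding 1 CPM to each, so changes of low genes are understated. For each gene, a 2-sided exact binomial test compared the counts of both libraries, with Benjamini-Hochberg adjustment over all genes tested at 0.05. It compares these libraries, not conditions. It was tried on simulated counts with counting error alone and with planted differences larger than those of the called tubulins. That trial therefore does not bear on these calls or on variation between libraries beyond counting error. Intervals are 95% and cover counting error only: exact Poisson for densities, Wilson for shares. They and the binomial test treat each read as a separate molecule. Reads amplified by PCR and lacking molecular identifiers need not be that, so intervals may be too narrow and p-values too small. Gene positions are those of RefSeq on GRCm38.p6, a later patch of the build named above. The genes named were all 10 members, the other tubulins, pseudogenes with a tubulin symbol, the 3 most dense genes of each pathway list and the 5 genes nearest to Tuba1a and to Tubb3. The planned measure of shared sequence between paralogs was not run, as no coding or protein sequence was used here. DESeq2 1.42.0 size factors were an alternative scaling.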

Additional observations from a re-analysis of the deposited data

How the results depend on the processing

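No paired analysis was possible because both libraries belong to 1 group. The planned measure of sequence shared between paralogs was not run. Leaving out a replicate gave a tubulin share of 3.28% to 3.59%, a summed tubulin density of 22645 to 28630 CPM per coding kilobase, an alpha to beta ratio of 0.765 to 0.813 and a Tuba1a share of alpha density of 38.1% to 38.5%. Summing isoforms moved the tubulin share from 3.43% to 2.22% and the summed density from 25638 to 16550. It moved the alpha to beta ratio from 0.789 to 0.999 and the Tuba1a share from 38.3% to 51.2%. A sum can count a fragment again for each isoform. It also raised the total over all genes, from 343547 to 729027 counts in replicate 1. Dividing by transcript length moved the summed density to 18770, the ratio to 0.855 and the Tuba1a share to 41.2%. Using protein-coding genes alone raised the tubulin share to 4.47% and the summed density to 33268, since the denominator is smaller. The 6 called members became 1 with library totals, 1 without the count filter, 3 with replicate 1 thinned to the depth of replicate 2, and 0 with a preset coefficient of variation of 0.2, where all adjusted p were 1; the cause was not tested. Over all genes tested, calls went from 225 of 5436 (4.14%) to 199 (3.66%) with library totals, 131 (2.41%) with that coefficient, 273 of 20980 (1.30%) without the filter, 75 of 764 (9.82%) where the minimum mean was 50, 142 of 2710 (5.24%) with thinning, 22 of 4392 (0.501%) for coding genes alone and 605 of 8366 (7.23%) with isoforms summed. Taking the longest coding isoform, scaling by DESeq2 size factors or scaling on coding genes left 6 members called. A minimum mean of 50 also left 6 called, with 9 members tested. With isoforms summed 7 of the 10 were called, Tuba1c being the one added. Tuba4a-001 was added after the data were seen. No member's log2 ratio that was called changed direction under these settings.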
